A study of Mus musculus with 6 samples.

Results

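A set of 68 autosomal genes in 3 clonal mouse B cell lines gave nearly all of their allelic reads from the paternal allele. They were chosen from allele-resolved RNA-seq counts by a rule on the maternal share, which is the maternal counts divided by the counts of both alleles. A gene had to have at least 20 allelic counts in each of 6 libraries, lie on an autosome other than chromosomes 4 and 10, and have a mean maternal share of at most 0.1 in every line. Zrsr1, an imprinted gene, was left out by the rule. The 68 genes are 0.907% of the 7495 genes that met the coverage minimum on those chromosomes, and the allele table lists 19402 genes in all. The lines are Abl.2 (female), Abl.3 (male) and Abl.4 (female), immortalised B cells from F1 mice of the cross 129S1/SvImJ x CAST/EiJ. All were kept in growth medium that held 1% of the solvent DMSO, the study's control condition, and were harvested on day 2. Each line is a single clone with 2 libraries that the labels call library preparation replicates. The p-values below therefore measure only the spread between library preparations.

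A diploid cell can use the alleles of a gene unequally in several known ways. In genomic imprinting, the allele of one parent is silenced in the cells in which the gene is imprinted, whatever its sequence. In strain-dependent expression, a sequence difference between the parental genomes makes one allele more active in every cell of the hybrid. In random monoallelic expression, a clone of lymphocytes keeps one allele active, and another clone may keep the other. Shares counted at SNPs also depend on whether each read can be placed at one gene and one allele. The tables name the alleles as maternal and paternal, all 3 lines carry the same cross, and which strain was the mother is not used here. The parent of an allele and its strain cannot be told apart in these data.

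The 6 libraries held 18362319 to 26881211 allelic counts, and the members held 23 to 35507 counts in a library. Of 15 B-lineage marker genes, 15 had at least 1 TPM (abundance scaled to transcript length and library total) in all libraries, with a summed level of 15902 to 19174 TPM. Of 17 marker genes of other cell types, 14 were below 1 TPM in all libraries and 6 (Cd3g, Elane, Hbb-bs, Pf4, Col3a1 and Ncr1) were at 0. Summed over the 17 genes, the level of Abl.2 (159.3 to 193.6 TPM) was above those of Abl.3 (76.5 to 97.6 TPM) and Abl.4 (78.9 to 90.6 TPM). Lyz2, a lysozyme gene of myeloid cells, made up most of that sum, with 157.6 and 192.8 TPM in Abl.2, 96.5 and 73.8 TPM in Abl.3 and 82.5 and 70.8 TPM in Abl.4. Itgam, a myeloid integrin, had 0.51 and 0.35 TPM in Abl.2 and 6.89 and 6.74 TPM in Abl.4, the opposite order. The part of these markers in the differences between lines below was not tested.

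Many members have a near-identical gene elsewhere in the genome. A transcript of another gene matched at least 95% of bases over at least 50% of the member's longest transcript in 16 of 68 members (23.5%). The same held for 235 of 7487 genes that met the coverage minimum and had a transcript in the annotation (3.14%), and for 14 of the 69 genes with a maternal share of at least 0.9 in all lines (20.3%). The search and the differences given below used annotated transcripts, not the sequences of the parental strains. How many bases separate each pair in these cells was not tested. The stretches printed here show how few bases can separate a member from its copy in the annotation. Each is read from the GENCODE M21 transcripts, 5′ to 3′, and capitals mark the bases at which the pair differ. Positions are counted from 1 at the 5′ end of the member's transcript, with the member's base first.
Gm6563, 248 to 328: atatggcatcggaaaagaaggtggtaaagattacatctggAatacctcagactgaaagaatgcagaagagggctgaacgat
Sarnp, same stretch: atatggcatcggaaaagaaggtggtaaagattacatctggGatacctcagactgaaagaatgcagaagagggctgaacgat
Pcna-ps2, 103 to 216: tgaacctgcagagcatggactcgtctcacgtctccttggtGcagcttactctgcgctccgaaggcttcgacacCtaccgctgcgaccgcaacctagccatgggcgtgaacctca
Pcna, same stretch: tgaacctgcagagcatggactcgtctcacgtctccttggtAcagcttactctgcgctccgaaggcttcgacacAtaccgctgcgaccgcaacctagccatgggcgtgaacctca
Gm10076, 113 to 141: caagtaagccagccTgtgcacctacgacg
Rpl41, same stretch: caagtaagccagccCgtgcacctacgacg
Gm10076, 220 to 248: agtagacctggaacAtcacctcgccgcga
Rpl41, same stretch: agtagacctggaacGtcacctcgccgcga

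Gm6563 is a processed pseudogene (an intron-less copy made from an mRNA) at chr19:23675844-23676712 (GRCm38, coordinates of the authors' tables) and differed from Sarnp, an RNA-binding protein gene, by A288G alone over 633 bases. Gm10076 is annotated as a lincRNA at chr14:105681828-105682211 and differed from Rpl41, a ribosomal protein gene, by G1C, T127C and A234G over 384 bases. Pcna-ps2 at chr19:9283238-9284494 is a processed pseudogene of Pcna, the sliding clamp of DNA replication, and had 6 differences over 781 bases, of which the stretch above holds G143A and C176A. For Gm6563 and Pcna-ps2 the authors' coordinates do not start where the GENCODE M21 gene starts. The differences listed for them may therefore not cover the whole interval in which reads were counted. Hmga1b at chr11:120762794-120764419, an architectural chromatin protein gene, differed from Hmga1 at 3 of the 1602 bases that aligned, out of a transcript of 1626. The other members with a copy were Gm12355 (Srsf3), AK157302 (Isca1), Rnaset2b (Rnaset2a), Gm10269 (Rpl35), Gm10874 (Got2), Gm9008 (Rnf26), Trim5 (Trim12c), Gvin1 (Gm4070), Gm26750 (Aida), Fam177a (1700047I17Rik2), Tmem254a (Tmem254b) and Nanp (Gm6741). In 10 of the 16 pairs the copy lies on another chromosome.

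The copies with enough counts did not show the paternal bias of the members. Of the 16 closest copies, 13 met the coverage minimum, and their maternal shares ranged from 0.277 to 0.862. 0 of the 13 were at 0.1 or below in any line, and 11 lay between 0.3 and 0.7 in every line. Rpl41 had mean shares of 0.361, 0.528 and 0.486 in Abl.2, Abl.3 and Abl.4, where Gm10076 had 0.000706, 0.000578 and 0.00105. Sarnp had 0.340, 0.515 and 0.502, where Gm6563 had 0, 0.00177 and 0.00548. Rpl41 and Sarnp lie on chromosome 10, which the rule leaves out. Pcna had 0.548, 0.562 and 0.561, where Pcna-ps2 had 0.00511, 0.00298 and 0.00645. The copy had the higher mean TPM in 12 of the 15 pairs with abundance values, as with Srsf3 at 423.5 TPM beside Gm12355 at 6.97 TPM. The counting could have split reads between a member and its copy, so the values of these 16 members are uncertain, and the part of the copies in the shares was not tested.

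**Figure D1:**
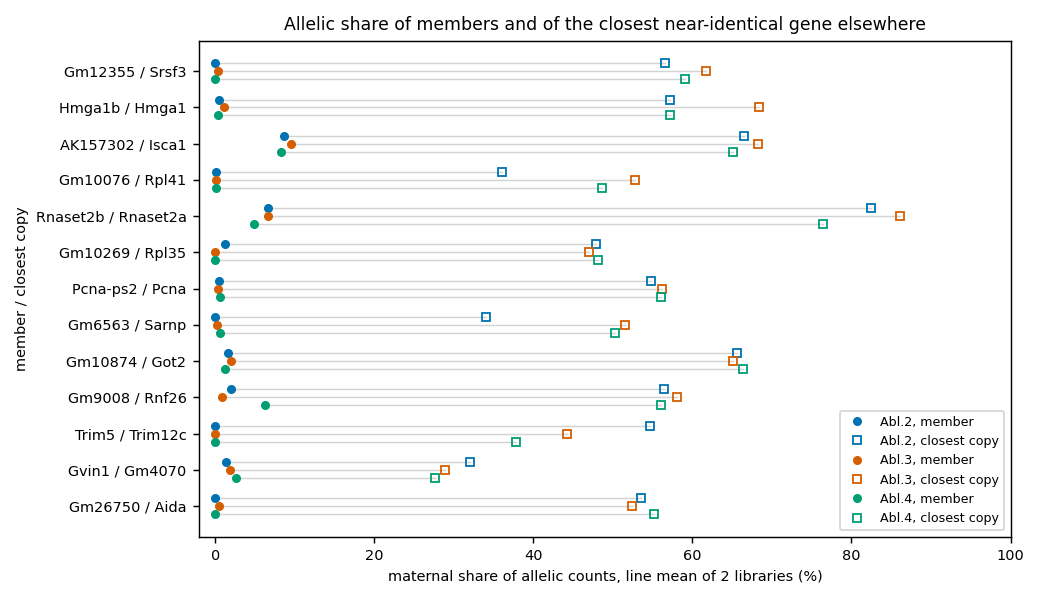
Mean maternal share of allelic counts (percent, mean of 2 libraries) of 13 members (filled circles) and of their closest near-identical gene (open squares), with 1 colour per line. All circles lie at or below a share of 0.1, and the squares spread from 0.277 to 0.862.

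The shares chose the members and are given as a description. The median mean share of the 68 genes was 0.0121 (Abl.2), 0.0188 (Abl.3) and 0.0148 (Abl.4). Over the 7495 genes it was 0.501, 0.496 and 0.502. A share of at most 0.01 was reached by 33, 31 and 28 members in the 3 lines, and by 21 in all of them. A mean share above 0.05 in some line was found in 27 members, and in every line in 5. The line with the highest share was Abl.2 for 13 members, Abl.3 for 26 and Abl.4 for 23, and the other 6 were at 0 in all lines. Pooled over members, maternal counts made up 1.91% to 2.88% of the allelic counts of a library. In 12 members at least 1 library was above 0.1, the highest at 0.189, and 10 members had a library with fewer than 50 counts, where a single maternal read moves the share most. Maternal reads were present in every library in 35 members.

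**Figure D2:**
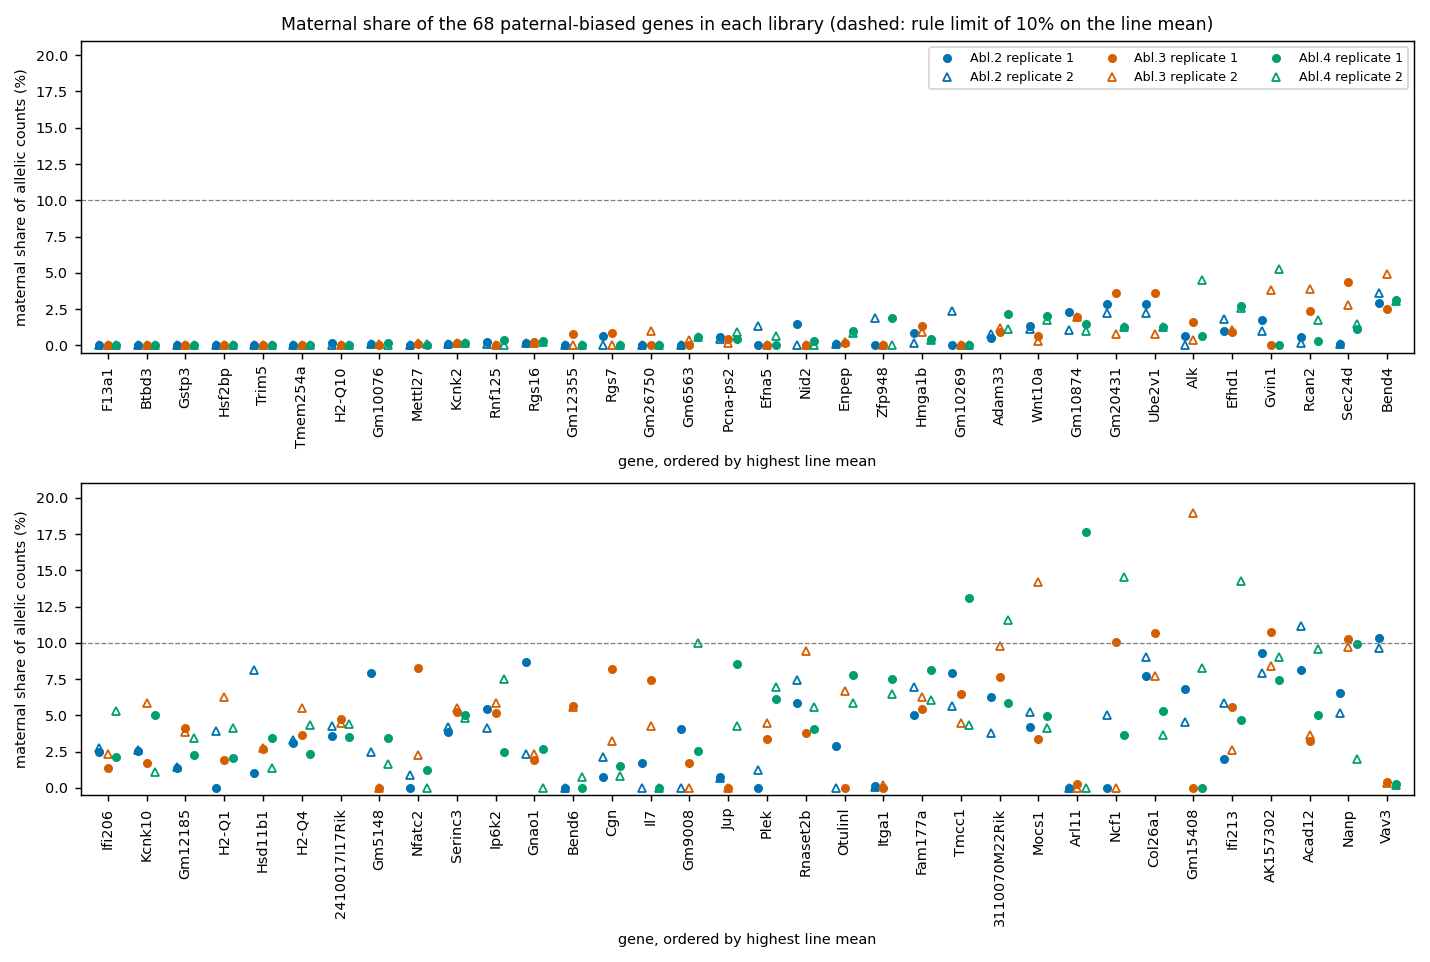
Maternal share of allelic counts (percent) of each of the 68 genes in each of 6 libraries, ordered by the highest line mean, with the limit of 0.1 dashed. Most genes of the upper panel lie near 0, and single libraries of the lower panel reach a share of 0.189.

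In 6 members there was no maternal count in any library. Btbd3, which encodes a BTB domain protein, had 1695 counts in all, so that a pooled share of up to 0.177% remains possible. F13a1, the catalytic subunit of coagulation factor XIII, had 1140 counts (up to 0.263%), Hsf2bp, a meiotic recombination factor, 633 counts (up to 0.474%) and Gstp3, a glutathione transferase, 592 counts (up to 0.507%). Trim5 and Tmem254a were the others. These limits cover counting error only, since the reads carry no molecular identifiers. At the other end, just inside the limit, Vav3, a guanine nucleotide exchange factor, had library shares of 0.103 and 0.0964 (Abl.2), 0.00431 and 0.00353 (Abl.3) and 0.00267 and 0.00208 (Abl.4). Both Abl.2 libraries of Vav3 were far above the other 4. Nanp, a phosphatase of sialic acid synthesis, had its highest mean in Abl.3 (0.0997), Acad12, an acyl-CoA dehydrogenase family gene, in Abl.2 (0.0963) and AK157302 in Abl.3 (0.0957). Just outside, the highest line means were 0.102 for Cnn1, 0.108 for Gfra4, 0.111 for Gm28042 and 0.111 for Prkag3. In all, 24 genes had line means of at most 0.15 with at least 1 above 0.1.

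The authors' deposited table gives a maternal fraction with confidence limits for 59 of the 68 members in all 3 lines. The upper limit was below 0.5 in all lines for 58 of the 59, and the exception was Ifi213, with an upper limit of 0.51 in Abl.4. The estimate itself was at most 0.1 in all lines for 58 of the 59, and the exception was Gm15408, at 0.11 in Abl.3. These estimates come from the same counts and are not independent of the rule. The rule took out Zrsr1 by name, the single gene besides the members at 0.1 or below in all lines, so that the lack of listed imprinted genes among the members is partly fixed by the choice. Of 34 paternally expressed imprinted genes, 26 are in the allele table and 5 met the coverage minimum (Impact, Zrsr1, Inpp5f, Jade1 and Gab1). Impact missed the limit, with mean shares of 0.00155 (Abl.2), 0.109 (Abl.3) and 0.137 (Abl.4).

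Abundance was not used by the rule. Of the 68 members 67 are in the abundance table (Gm26750 is not), and their median over 6 libraries was 4.99 TPM, against 28.1 TPM for the 7328 genes that met the coverage minimum and have TPM. The 67 maternal-biased genes with TPM had a median of 4.10 TPM. At least 100 TPM was reached by 7 members (10.5%) and by 18.8% of the 7328 genes. The 12 most abundant members were Gm10076 (2108 TPM), Serinc3 (823 TPM), Enpep (132 TPM), Hmga1b (125 TPM), Gm6563 (119 TPM), Ube2v1 (113 TPM), Efhd1 (100.8 TPM), Wnt10a (97.0 TPM), Rgs16 (96.4 TPM), Pcna-ps2 (94.2 TPM), Rnf125 (72.2 TPM) and Gm9008 (38.7 TPM). Of these 12, Gm10076, Hmga1b, Gm6563, Pcna-ps2 and Gm9008 have a near-identical copy.

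Some members had allelic counts but almost no TPM. Of the 67 members 5 (7.46%) had a mean below 0.1 TPM, against 67 of the 7328 genes (0.914%) and 3 of the 67 maternal-biased genes (4.48%). The lincRNA 2410017I17Rik had 21867 allelic counts and was listed at 0 TPM in all libraries. H2-Q10, a class Ib MHC gene, had 3873 counts and a mean of 0.01 TPM. Fam177a, Tmem254a and Gm10269 were listed at 0 TPM with 544, 311 and 263 counts, and each has a near-identical copy. Conversely Gm9008 had only 244 counts at 38.7 TPM. For these genes the allele table and the abundance table do not give the same picture of the amount of transcript.

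**Figure D3:**
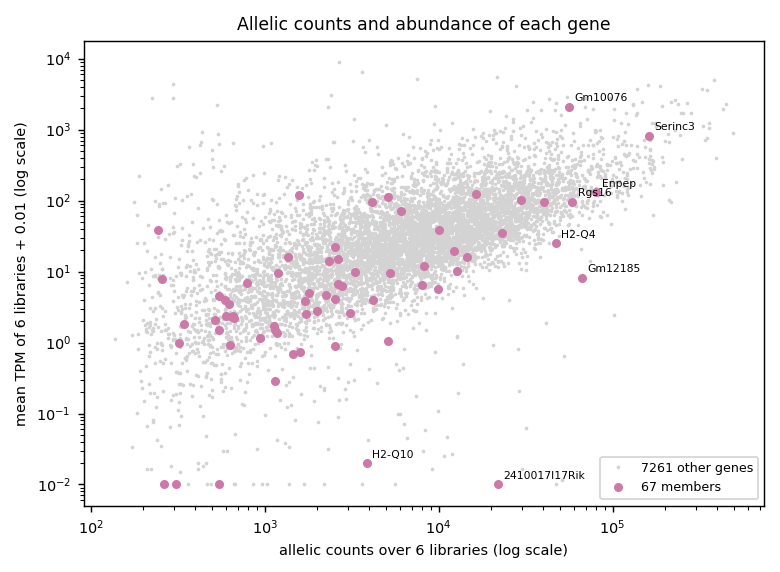
Allelic counts summed over 6 libraries (x axis, log scale) and mean TPM + 0.01 (y axis, log scale) of each gene that met the coverage minimum, with 67 members in colour and other genes in grey. Gm10076 has the highest TPM among members, and 2410017I17Rik lies on the lower edge with 21867 counts.

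Some members differed in abundance between the lines, and 15 of the 56 tested were called in no pair of lines. On the log2(TPM + 1) scale, 56 members had a mean of at least 1 TPM and were tested with limma among 11003 genes, with Benjamini-Hochberg adjustment over all of them (threshold 0.05). The 11003 genes were not limited to the chromosomes that the rule allows. Between Abl.2 and Abl.3, 28 of 56 members were called, where 39.8% of all genes tested were. Of these 14 were higher in Abl.2 (25.9% of all genes) and 14 higher in Abl.3 (14% of all genes). Between Abl.2 and Abl.4, 23 were called, where 33.5% of all genes were. Of these 12 were higher in Abl.2 (15% of all genes) and 11 higher in Abl.4 (18.4%). Between Abl.3 and Abl.4, 24 were called, where 38.1% of all genes were. Of these 13 were higher in Abl.3 (11.3% of all genes) and 11 higher in Abl.4 (26.8%). A difference of at least 1 was found in 12, 11 and 8 members, where 10.5%, 10.1% and 9.47% of all genes passed. At least 1 pair of lines differed in 41 of 56 members (73.2%) and in 59.7% of all genes. The median of the members' differences was 0.03, -0.06 and -0.11 for the 3 pairs, and that of all genes 0.10, -0.03 and -0.15. The comparisons share libraries, so their values for one gene are not independent.

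Scaling moved the split between the directions. Setting the median of every library equal moved all differences by -0.18 (Abl.2 against Abl.3), 0.06 (Abl.2 against Abl.4) and 0.24 (Abl.3 against Abl.4). Between Abl.2 and Abl.3, 26 members were then called (40.1% of all genes), 10 higher in Abl.2 (16.1%) and 16 higher in Abl.3 (24%). Between Abl.2 and Abl.4, 23 were called (33.7% of all genes), 15 higher in Abl.2 (17.8%) and 8 higher in Abl.4 (16%). Between Abl.3 and Abl.4, 26 were called (38.7% of all genes), 18 higher in Abl.3 (24.8%) and 8 higher in Abl.4 (13.9%). Single libraries also mattered. Between Abl.2 and Abl.4 the count fell to 15 members without Abl.2 replicate 1 (17.9% of all genes) and to 14 without Abl.2 replicate 2 (18.9% of all genes). Between Abl.3 and Abl.4 it fell to 13 without Abl.3 replicate 1 (21.3% of all genes) and to 14 without Abl.3 replicate 2 (21.5% of all genes). The count over all genes thus fell in the same fits. With edgeR on the summed counts of both alleles, 30, 31 and 31 of all 68 members were called, where 42.1%, 37.2% and 37.3% of 8703 genes were. All members called by limma had the same sign with edgeR for Abl.2 against Abl.3 (28 of 28) and Abl.3 against Abl.4 (24 of 24), and 21 of 23 did for Abl.2 against Abl.4, the exceptions being Ube2v1 and Gm20431. Called by edgeR as well, with the same sign, were 22 of the 28, 19 of the 23 and 22 of the 24.

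**Figure D4:**
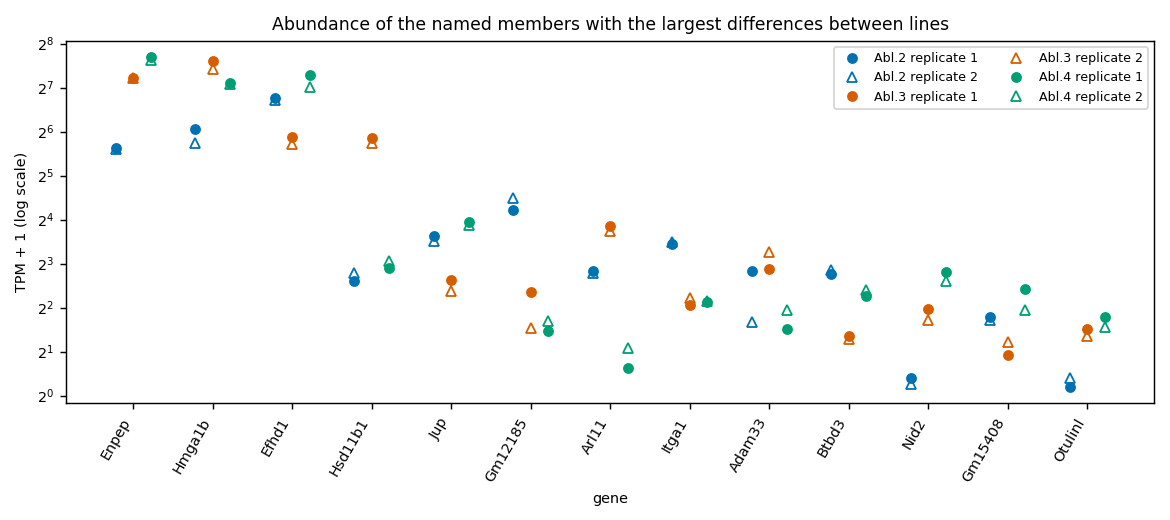
TPM + 1 (log scale) in each of 6 libraries for the members with the largest called differences between lines, with 1 colour per line and 1 symbol per library preparation replicate. Hsd11b1 is high in Abl.3 alone, and Enpep is lowest in Abl.2.

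Among 15 genes of secreted, surface and junction proteins, 14 had at least 1 TPM. Enpep encodes aminopeptidase A, a surface enzyme of early B-lineage cells. Its abundance was 48.4 and 47.6 TPM in Abl.2, 146.7 and 147.5 TPM in Abl.3 and 205 and 196 TPM in Abl.4. The lines did not overlap, and Abl.2 was lowest. On the log2(TPM + 1) scale, used for all differences below, it stood at -1.60 ± 0.07 (SE) against Abl.3 (limma, adjusted p = 2.06e-05) and -2.04 ± 0.07 against Abl.4 (limma, adjusted p = 9.49e-06). Its maternal shares were 0.00109 and 0.000614 in Abl.2, 0.00145 and 0.00208 in Abl.3 and 0.00988 and 0.00829 in Abl.4, so both Abl.4 libraries had the highest shares and the highest abundance. Enpep lies at chr3:129269175-129332720.

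Itga1, the alpha chain of a collagen-binding integrin, had 9.86 and 10.2 TPM in Abl.2, 3.16 and 3.64 TPM in Abl.3 and 3.34 and 3.42 TPM in Abl.4. Abl.2 was above both other lines, by 1.33 ± 0.13 against Abl.3 (limma, adjusted p = 0.000597) and 1.33 ± 0.13 against Abl.4 (limma, adjusted p = 0.000612). Its maternal share was highest in Abl.4 (0.0752 and 0.0645) and at most 0.00197 in the other 4 libraries. Other tested genes lie within the body of Itga1, Pelo and Gm49395. Pelo had mean shares of 0.00209, 0.0835 and 0.139 in Abl.2, Abl.3 and Abl.4, and Gm49395 had 0.00203, 0.0736 and 0.136. Both were below 0.1 with Itga1 in Abl.2 and Abl.3 and above it in Abl.4. Where genes overlap, the counting could have assigned reads to either.

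Jup, the junction protein plakoglobin, had 11.3 and 10.5 TPM in Abl.2, 5.13 and 4.17 TPM in Abl.3 and 14.5 and 13.8 TPM in Abl.4. Abl.3 was lowest, at -1.43 ± 0.13 against Abl.4 (limma, adjusted p = 0.000509). Nid2, a basement membrane protein, had 0.31 and 0.19 TPM in Abl.2, 2.88 and 2.30 TPM in Abl.3 and 6 and 5.12 TPM in Abl.4. It was lower in Abl.2 than in Abl.4 (difference -2.39 ± 0.18, limma, adjusted p = 0.000171). On the allelic counts of Nid2 edgeR gave a larger difference of -3.43 (adjusted p = 6.05e-07). Adam33, a surface metalloprotease, had 6.07 and 2.19 TPM in Abl.2, 6.38 and 8.59 TPM in Abl.3 and 1.87 and 2.87 TPM in Abl.4. Abl.3 was above Abl.4 by 1.34 ± 0.38 (limma, adjusted p = 0.0336). The difference was not called when any of those 4 libraries was left out, with values from 1.12 to 1.55. Nor was it called with no filter on low values (limma, adjusted p = 0.0915). On the allelic counts of Adam33 edgeR gave a larger difference of 1.94 (adjusted p = 2e-05).

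Wnt10a, a secreted Wnt ligand, had 155 and 119 TPM in Abl.2, 72.4 and 62.7 TPM in Abl.3 and 97.3 and 75.7 TPM in Abl.4. Abl.2 was highest, by 1.00 ± 0.17 against Abl.3 (limma, adjusted p = 0.00503) and 0.66 ± 0.17 against Abl.4 (limma, adjusted p = 0.0278). The second difference was not called by limma without Abl.2 replicate 1 (adjusted p = 0.158), Abl.3 replicate 1 (0.0525), Abl.3 replicate 2 (0.0522) or Abl.4 replicate 2 (0.147). Its shares ran from 0.00330 in an Abl.3 library to 0.0199 in an Abl.4 library over 40407 counts. Serinc3 at chr2:163623272-163645131, a multipass membrane protein that restricts retroviruses, had 161758 counts, the most of any member, and shares from 0.0387 to 0.0550 in the 6 libraries. Its maternal reads summed to 7568. Serinc3 had 862 and 942 TPM in Abl.2, 544 and 563 TPM in Abl.3 and 951 and 1077 TPM in Abl.4, with Abl.3 below Abl.4 (difference -0.87 ± 0.09, limma, adjusted p = 0.000757). On its allelic counts edgeR gave a smaller difference of -0.40 (adjusted p = 0.00906). Abl.2 was above Abl.3 by 0.70 ± 0.09 for Serinc3 (limma, adjusted p = 0.00156), where edgeR on the allelic counts gave 0.24 (adjusted p = 0.0777). Kcnk2, a potassium leak channel, had 23237 counts and shares from 0.000711 to 0.00192.

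Of 10 genes of intracellular signalling, 9 had at least 1 TPM. Arl11, an Arf-like GTPase, had 6.13 and 5.86 TPM in Abl.2, 13.4 and 12.4 TPM in Abl.3 and 0.55 and 1.12 TPM in Abl.4. The lines did not overlap, and Abl.4 was lowest, by 2.94 ± 0.18 against Abl.3 (limma, adjusted p = 9.64e-05) and 1.95 ± 0.18 against Abl.2 (limma, adjusted p = 0.000459). Its share in Abl.4 was 0.176 in replicate 1 and 0 in replicate 2, and its lowest library held 34 counts, so the Abl.4 mean of 0.0882 rests on few reads. Efhd1, a mitochondrial calcium-binding protein, had 107.8 and 103.8 TPM in Abl.2, 57.8 and 51.8 TPM in Abl.3 and 155 and 129 TPM in Abl.4. Abl.3 was lowest, at -1.35 ± 0.11 against Abl.4 (limma, adjusted p = 0.000299). Efhd1 shares were between 0.00944 and 0.0271 over 29733 counts. Rgs16, which speeds GTP hydrolysis by G protein alpha subunits, had 124 and 122 TPM in Abl.2, 114 and 104 TPM in Abl.3 and 56.0 and 57.6 TPM in Abl.4. Abl.4 was below Abl.2 by 1.10 ± 0.08 (limma, adjusted p = 0.000141) and below Abl.3 by 0.93 ± 0.08 (limma, adjusted p = 0.000347), while the shares of Rgs16 stayed between 0.00130 and 0.00305.

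Plek, a substrate of protein kinase C in blood cells, had shares of 0 and 0.0121 in Abl.2, 0.0339 and 0.0445 in Abl.3 and 0.0614 and 0.0699 in Abl.4. The libraries of the 3 lines did not overlap. Cnrip1, which overlaps Plek, had mean shares of 0.00142, 0.491 and 0.647 in Abl.2, Abl.3 and Abl.4. It was thus near the paternal extreme with Plek in Abl.2 and not in the other lines.

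Among 9 genes of antigen presentation and defence, 7 had at least 1 TPM. Of the members 3 are MHC genes (symbols starting with H2-), or 4.41% against 0.213% of the 7495 genes, and all 3 are in the Q region of chromosome 17. H2-Q4 at chr17:35379617-35385290, the deepest of these class Ib genes with 47181 counts, had shares of 0.0311 and 0.0330 in Abl.2, 0.0364 and 0.0549 in Abl.3 and 0.0233 and 0.0432 in Abl.4. It had 25.9 and 25.9 TPM in Abl.2, 23.7 and 27.2 TPM in Abl.3 and 22.5 and 24.8 TPM in Abl.4, and no pair of lines was called (limma, adjusted p from 0.402 to 0.868). With the median of every library set equal, Abl.3 was above Abl.4 by 0.34 (limma, adjusted p = 0.0417), and with quantile normalisation by 0.35 (limma, adjusted p = 0.0437). H2-Q1 lies 54.5 kb and H2-Q10 84.8 kb from H2-Q4. H2-Q1 had only 345 counts, and H2-Q10 had a single maternal count among 3873. The search for near-identical copies found none within its limits for H2-Q1, H2-Q4 and H2-Q10.

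Ifi206 and Ifi213, members of the interferon-inducible PYHIN family, lie 75.2 kb apart on chromosome 1. Ifi206 had shares of 0.0247 and 0.0275 in Abl.2, 0.0137 and 0.0232 in Abl.3 and 0.0210 and 0.0531 in Abl.4 over 12282 counts, and Ifi213 had means of 0.0390, 0.0409 and 0.0949 over 662 counts. Ifi206 was higher in Abl.3 than in Abl.4 by 0.46 ± 0.13 (limma, adjusted p = 0.0357), a call that was lost when any library but Abl.4 replicate 2 was left out (adjusted p from 0.0736 to 0.174). Rnf125, a ubiquitin ligase that acts on antiviral RNA sensors, had 83.5 and 99.6 TPM in Abl.2, 82.0 and 76.0 TPM in Abl.3 and 35.9 and 56.5 TPM in Abl.4. Abl.4 was below Abl.2 by 1.00 ± 0.21 (limma, adjusted p = 0.0118) and below Abl.3 by 0.80 ± 0.21 (limma, adjusted p = 0.0246). The first was not called by limma without Abl.2 replicate 2 (adjusted p = 0.0844), nor the second without Abl.3 replicate 1 (0.124), Abl.3 replicate 2 (0.0903) or Abl.4 replicate 1 (0.0548). Of 6072 Rnf125 counts 6 were maternal.

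All 7 genes of metabolic and ubiquitin enzymes had at least 1 TPM. Hsd11b1 at chr1:193221634-193264075, which regenerates active glucocorticoids, had 5.12 and 5.88 TPM in Abl.2, 56.9 and 52.7 TPM in Abl.3 and 6.48 and 7.39 TPM in Abl.4. Both Abl.3 libraries stood above the other 4. Abl.2 differed from Abl.3 by -3.10 ± 0.12 (limma, adjusted p = 1.36e-05), and Abl.3 was above Abl.4 by 2.82 ± 0.12 (limma, adjusted p = 2.74e-05). Its shares were 0.01 and 0.0811 in Abl.2, 0.0267 and 0.0273 in Abl.3 and 0.0342 and 0.0138 in Abl.4. The lines overlapped, and the highest share, in Abl.2 replicate 2, rests on 12 maternal and 136 paternal counts. Lamb3, a laminin chain gene that overlaps Hsd11b1, was biased the other way, with mean shares of 0.813, 0.873 and 0.844. Ube2v1, a partner of ubiquitin-conjugating enzymes, and the readthrough gene Gm20431 overlap. Their allelic counts were identical in all libraries (5092 in all), so these are 1 source of reads. The numbers of members given here still include both genes. They differed in abundance, with means of 113 TPM for Ube2v1 and 1.05 TPM for Gm20431. Both were lower in Abl.2 than in Abl.4 in TPM, Ube2v1 with a difference of -0.28 ± 0.08 (limma, adjusted p = 0.0367), and edgeR on their allelic counts gave the opposite sign (0.07, adjusted p = 0.692). The Ube2v1 call was lost in limma when any of the 6 libraries was left out (adjusted p from 0.0503 to 0.171).

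Of 6 genes of nuclear and BTB domain proteins, 4 had at least 1 TPM. Hmga1b had 65.4 and 52.7 TPM in Abl.2, 194 and 169 TPM in Abl.3 and 137.5 and 133 TPM in Abl.4. Abl.2 was lowest, at -1.61 ± 0.12 against Abl.3 (limma, adjusted p = 0.000185) and -1.19 ± 0.12 against Abl.4 (limma, adjusted p = 0.000683). The allelic counts of Hmga1b gave -1.58 and -0.99 for the same pairs with edgeR. Btbd3, with no maternal count, had 5.74 and 6.25 TPM in Abl.2, 1.56 and 1.44 TPM in Abl.3 and 3.77 and 4.28 TPM in Abl.4. Abl.2 was above Abl.3 by 1.48 ± 0.15 (limma, adjusted p = 0.000564). In the group of other coding genes, Otulinl, an endoplasmic reticulum protein related to the deubiquitinase OTULIN, had 0.15 and 0.32 TPM in Abl.2, 1.84 and 1.55 TPM in Abl.3 and 2.45 and 1.92 TPM in Abl.4. It was lower in Abl.2 than in Abl.4 (difference -1.37 ± 0.19, limma, adjusted p = 0.00273). On the allelic counts of Otulinl edgeR gave a larger difference of -2.98 (adjusted p = 3.83e-06).

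The last group holds 15 predicted, noncoding, readthrough and pseudogene entries, of which 11 had at least 1 TPM. Gm12185, a predicted coding gene at chr11:48904656-48992226, had 17.7 and 21.5 TPM in Abl.2, 4.12 and 1.91 TPM in Abl.3 and 1.75 and 2.26 TPM in Abl.4. Abl.2 was highest, by 2.41 ± 0.28 against Abl.3 (limma, adjusted p = 0.00103) and 2.78 ± 0.28 against Abl.4 (limma, adjusted p = 0.000614). On its allelic counts edgeR gave larger differences of 4.15 (adjusted p = 1.01e-09) and 3.69 (adjusted p = 1.23e-09). Its allelic counts per library ran from 1258 to 35507, and its mean shares were 0.0138, 0.0396 and 0.0282. The gene 9930111J21Rik1, which overlaps Gm12185 on the same strand, had a maternal share of 1 in all 3 lines, the opposite extreme. Olfr56 and Tgtp1 also overlap Gm12185 and were at neither extreme. Mean shares in Abl.2, Abl.3 and Abl.4 were 0.559, 0.445 and 0.544 for Olfr56 and 0.261, 0.263 and 0.392 for Tgtp1. Gm15408, a lincRNA, had 2.44 and 2.31 TPM in Abl.2, 0.90 and 1.31 TPM in Abl.3 and 4.34 and 2.83 TPM in Abl.4. Abl.3 was below Abl.4 (difference -1.11 ± 0.22, limma, adjusted p = 0.00904), and without Abl.3 replicate 1 the adjusted p was 0.0572. Gm10076 had 3155 and 2780 TPM in Abl.2, 2084 and 1993 TPM in Abl.3 and 1469 and 1166 TPM in Abl.4, with the lines in that order and no overlap. Abl.2 was above Abl.4 by 1.18 ± 0.13 (limma, adjusted p = 0.000834), where edgeR on its allelic counts gave 0.53 (adjusted p = 0.0158). For the other pairs of lines Gm10076 was called by limma but not by edgeR. There edgeR gave 0.16 for Abl.2 against Abl.3 (adjusted p = 0.413) and 0.37 for Abl.3 against Abl.4 (adjusted p = 0.0678).

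In the annotation, 60 members are protein coding (88.2%, against 98.5% of the 7495 genes), 5 are lincRNA genes and 3 are processed pseudogenes. Pseudogenes were 4.41% of members and 0.107% of the 7495 genes. Symbols of predicted genes (Gm and a number) were 11 of 68 (16.2%, against 2.60%). Overlap with another annotated gene was no more common among members (58.8%) than among all 7495 genes (59.3%). The members lie on 16 of the 17 chromosomes the rule allows, with 11 on chromosome 17 (16.2%, against 6.22% of the 7495 genes), 9 on chromosome 1 (13.2%, against 6.56%) and 0 on chromosome 16. These percentages are descriptions, since the members are not replicates.

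The genes beside the members were mostly expressed from both alleles. The nearest tested gene on each side that was not a member gave 130 genes at a median distance of 64.2 kb. Their median maternal shares were 0.499 (Abl.2), 0.476 (Abl.3) and 0.485 (Abl.4). Shares from 0.3 to 0.7 in all lines were found in 88 of 130 (67.7%) and in 60.3% of the 78 neighbours within 100 kb. Among the 7427 genes that are not members the percentage was 81.9%. A share of at most 0.1 was found in 7, 7 and 3 neighbours in the 3 lines (5.38%, 5.38% and 2.31%), against 146, 98 and 83 of the 7427 genes that are not members (1.97%, 1.32% and 1.12%). Within 100 kb the percentages at 0.1 or below were 7.69%, 6.41% and 3.85% of the 78 neighbours. When neighbours had to meet a coverage minimum of 50, the counts were 4, 3 and 3 of 130 (3.08%, 2.31% and 2.31%). The percentage over all genes at that minimum was not computed. The neighbours leave out members, and a neighbour at that level in all lines would be a member by the rule. Next to Adam33, Gfra4 had shares of 0, 0 and 0.108, and next to Wnt10a, Prkag3 had 0, 0 and 0.111, and both are among the genes just outside the limit. Each of these Abl.4 means rests on 1 library, with Gfra4 at 0.217 in replicate 1 (60 counts) and 0 in replicate 2 (29 counts), and Prkag3 at 0 in replicate 1 (138 counts) and 0.222 in replicate 2 (81 counts). Of the 11 tested genes that overlap a member, 5 lay between 0.3 and 0.7 in all lines, among them Rtraf beside Nid2 (0.507, 0.513 and 0.473) and Tmem267 beside 3110070M22Rik (0.385, 0.420 and 0.479). At most 0.1 was found in 3 of the 11 in Abl.2 (27.3%: Pelo, Gm49395 and Cnrip1), in 2 in Abl.3 (18.2%: Pelo and Gm49395) and in 0 in Abl.4.

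**Figure D5:**
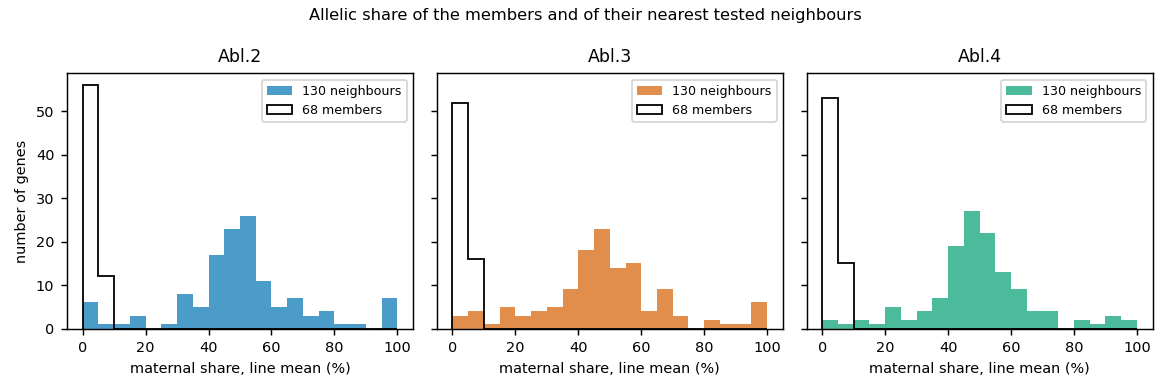
Number of genes by mean maternal share (percent, bins of 5 points) in each line, for the 68 members (black outline) and their 130 nearest tested neighbours (filled). The members lie at or below a share of 0.1, and the neighbours centre near their medians of 0.499, 0.476 and 0.485 with small groups at both ends.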

How the data were processed

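RNA-seq of 6 libraries was analysed, 2 library preparation replicates for each of 3 lines, grouped by the titles. Libraries were made with the SMARTseq v4 kit, which carries no molecular identifiers and does not mark strand. The deposited tables were used as they stand. The authors' allele table holds raw counts of maternal and paternal reads at SNPs per gene, per the file headers. The authors' abundance table holds TPM, obtained with DESeq2 per the file headers. TPM carry no read depth, so that depth is unknown. The authors' allelic imbalance table holds a maternal fraction per line, with its confidence limits, per the file headers. The submitters' processing notes name STAR 2.5.4a, SAMtools, GATK and DESeq2, with no role given here for each.

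Maternal shares were averaged over the 2 libraries of a line. Abundance was tested with limma 3.58.1 in R 4.3.3 (line means, all 6 libraries, trended eBayes) on log2(TPM + 1). The 11003 genes tested had a mean TPM of 1 or more, with Benjamini-Hochberg adjustment at 0.05. This scale understates the change of low genes. The abundance table was tested as normalised values because it holds TPM. edgeR 4.0.16 (quasi-likelihood) on the summed allelic counts of 8703 genes, also not limited to the chromosomes of the rule, was the alternative. Near-identical copies were searched with blastn 2.17.0 in GENCODE M21 transcripts, leaving out overlapping genes. All 68 members matched the annotation by gene ID. A limit for 0 maternal counts is 3 counts of the total. Other alternatives were the pseudocount, low-value filters, scaling, the replicate block, leaving out each library, the coverage minimum and the share limit.

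The members and lists were chosen with earlier results of these data known, and the copy search and the role groups were chosen after the members' names had been seen. Named genes were the 12 most abundant members, per pair of lines the 3 largest called rises and falls without overlap, the 4 members just inside and 4 genes just outside the limit, members within 100 kb of another, and the 4 deepest without maternal counts. Others named were chosen after their values were seen.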

Additional observations from a re-analysis of the deposited data

How the results depend on the processing

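Requiring a difference of at least 1 left 12, 11 and 8 members for Abl.2 against Abl.3, Abl.2 against Abl.4 and Abl.3 against Abl.4, and 1160, 1107 and 1042 of all genes. With a minimum mean of 5 TPM, which tests 33 members, 20, 15 and 15 were called, and 3787, 3081 and 3554 of 8925 genes. Leaving out 1 library gave 19 to 26, 14 to 21 and 13 to 22 members, and 2466 to 4541, 1970 to 3296 and 2343 to 3691 of all genes; a line left with 1 library is assumed to vary like the others. The rule gave 41 genes at a share limit of 0.05, 123 at 0.2, and 66 to 70 with 1 library left out. The median abundance was 3.94 TPM in Abl.3 alone and 7.39 TPM for members of at least 1 TPM. The neighbours' median share over the lines was 0.487, 0.479 within 100 kb and 0.497 at a coverage minimum of 50.

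The labels do not say that a replicate number marks a shared batch. With only 2 numbers per line, same-numbered libraries deviated with correlations of 0.104, 0.187 and 0.161. The replicate block gave 29, 24 and 29 members (28, 23 and 24 without it) and 5213, 4608 and 5184 of all genes (4382, 3682 and 4194 without it). For 29 called differences of named genes, 370 values under the alternatives kept the direction and the call, and 29 (Adam33, Gm15408, Ifi206, Rnf125, Ube2v1 and Wnt10a) lost it. The differences counted leave out Serinc3 between Abl.2 and Abl.3, and Gm10076 in pairs other than Abl.2 against Abl.4. Of the lost calls, 4 were lost with no filter on low values and 1 with medians set equal. The 3 differences of H2-Q4 were not called and stayed so in 40 values, and that between Abl.3 and Abl.4 gained a call under 2 scalings. Ube2v1 reversed between Abl.2 and Abl.4 with edgeR, at 0.0703 with TMM and 0.0738 with RLE; the cause was not tested. Members with few counts limit what can be seen: 10 had a library under 50 counts.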
